A study of Mus musculus with 32 samples.

Results

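Adding interferon gamma (IFN) to tumour necrosis factor (TNF) was examined in cultured mouse lung endothelial cells (ECs) of the Veravec line that carried a control siRNA. The 4 bulk RNA-seq libraries of the group si-control + TNF + IFN were compared with the 4 of the group si-control + TNF, 8 of the 32 libraries of the series, across all genes of the merged count table. Every group used here received siRNA by lipid transfection on 2 occasions before the cytokines, a control oligo in si-control and oligos against Dnmt1, the maintenance DNA methyltransferase, in si-dnmt. Cells were exposed for 16 h to TNFα (10 ng/mL), written TNF, to IFNγ (1000 U/mL), written IFN, or to both. The methods give the dose of each cytokine and do not state the doses of the combination separately. The remaining groups used were si-control with no cytokine, si-control + IFN, si-dnmt + TNF and si-dnmt + TNF + IFN, each with 4 libraries that the study describes as biological replicates. All libraries came from 1 cultured line.

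IFNγ is made mainly by T cells and natural killer cells. Its receptor works through the kinases JAK1 and JAK2 on latent transcription factors that bind gamma-activated sites (GAS), and a second wave of transcription factors led by IRF1 binds interferon-stimulated response elements. ECs answer IFNγ with antigen-presenting molecules, chemokines for T cells and antimicrobial GTPases. TNFα acts through NF-kB on adhesion molecules and chemokines of the same cells. The comparison asks what IFN changed in ECs that were already exposed to TNF.

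Total counts ranged from 20904131 to 22677895 in the TNF libraries and from 17734651 to 23657734 in the TNF + IFN libraries. Mitochondrial genes took 3.90% to 4.51% of counts with TNF and 2.73% to 3.65% with TNF + IFN. The composition factors of the TMM scaling (trimmed mean of M values) were 1.02 to 1.03 with TNF and 0.880 to 0.926 with TNF + IFN, so the 2 groups did not overlap in this factor. Replicates 1 and 2 of each group stood apart from replicates 3 and 4. The chi-square statistic per gene was 3.63 to 12.9 within these pairs and 57.7 to 86.3 between them. The labels name no day or batch for the pairs, and results are therefore also given within each pair. Endothelial markers were present, with Cdh5, the gene of VE-cadherin, at 1270.0 ± 245 CPM (counts scaled to a common library size, mean ± SD, n = 4) with TNF and 1149 ± 218 CPM with TNF + IFN. Of 12 leukocyte markers only Cd68, Csf1r, Lyz2 and Cd14 had enough counts to be tested. The defining markers Ptprc, Adgre1, Itgam, Cd3e and Ms4a1 had at most 3 counts in any of the 8 libraries. The list summed to 139.6 to 235 CPM with TNF and 104 to 171 CPM with TNF + IFN. In bulk RNA, fewer cells of a kind and less RNA per cell cannot be told apart.

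Of 54429 genes in all, 15250 had enough counts to be tested, and 3203 (21.0%) were called at a Benjamini-Hochberg adjusted p under 0.05 in edgeR's quasi-likelihood test. The call was higher with TNF + IFN for 1916 genes (12.6%) and lower for 1287 (8.44%). All 4 TNF + IFN libraries lay above all 4 TNF libraries for 1969 genes (12.9%) and below them for 1414 (9.27%). Rises were the larger changes, since 148 genes called higher had a log2 fold change of at least 3 and 37 genes called lower had one of -3 or less. Genes called higher took 16.2% to 17.4% of counts with TNF and 25.9% to 31.2% with TNF + IFN. The median log2 fold change over all genes tested was -0.0085. Scaling by library totals alone moved all genes down by a median of 0.18 on the log2 scale and turned the split into 1268 higher and 3188 lower, so the balance of small rises and falls depends on the scaling. A replicate block, which removes differences between the replicate numbers, called 5175 genes, 2737 higher and 2438 lower. These included all 3203 in the same direction. Block counts given for the lists below stand beside these larger totals.

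**Figure D1:**
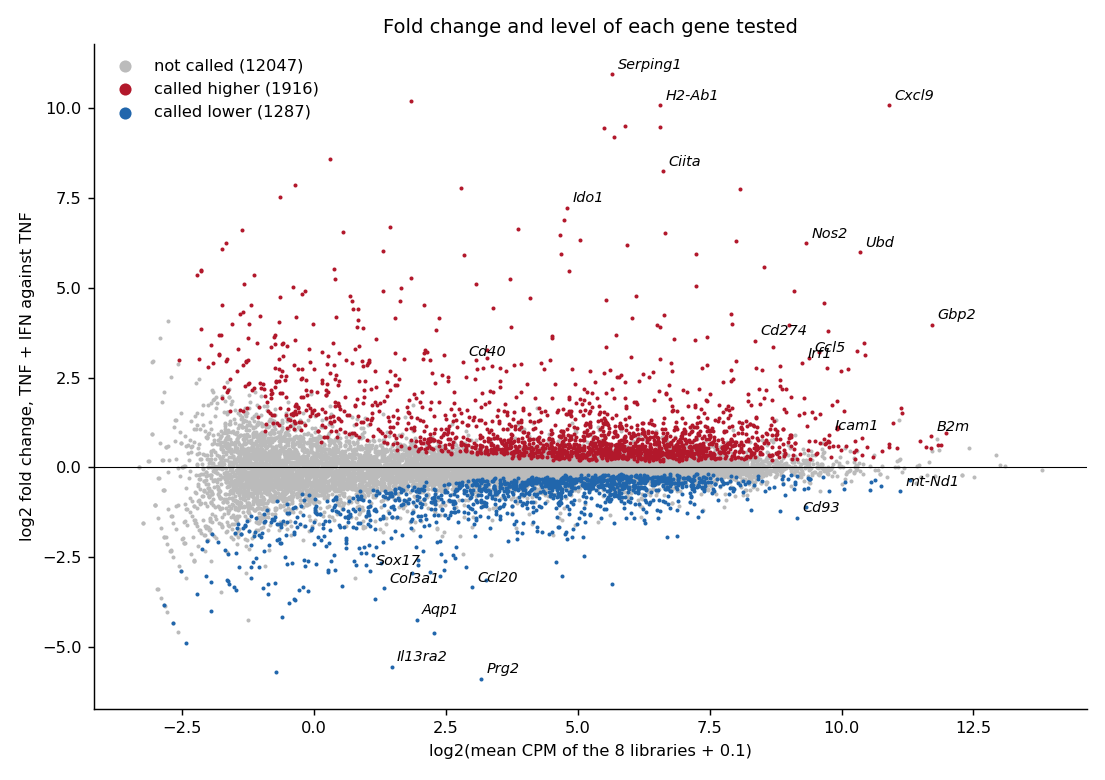
Each point is 1 of the 15250 genes tested, with its log2 mean CPM over the 8 libraries (0.1 added) on the x axis and its log2 fold change, TNF + IFN against TNF, on the y axis. Red points are the 1916 genes called higher and blue points the 1287 called lower; Serping1 and Cxcl9 stand at the top and Prg2 and Il13ra2 at the bottom.

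The signalling genes of the IFNγ pathway changed in both directions. Of 18 genes of the receptor and JAK-STAT list, 10 rose and 2 fell, or 55.6% and 11.1% beside the 12.6% and 8.44% over all genes tested, with a median log2 fold change of 0.47. The 2 that fell were the receptor genes Ifngr1 and Ifngr2. The feedback inhibitor Socs1 read 2.71, 3.19, 3.37 and 4.41 CPM in TNF replicates 1 to 4 and 57.4, 45.6, 29.5 and 35.5 CPM in the TNF + IFN replicates. The groups did not overlap, and Socs1 rose 12.3-fold (log2 fold change 3.62 ± 0.27, SE, adjusted p = 4.24e-11). Socs3 and Cish, feedback inhibitors of the same family, rose by 1.91 ± 0.46 and 1.56 ± 0.28 on the log2 scale.

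Interferon regulatory factors (IRFs) are transcription factors, and 4 of 7 tested rose (57.1%, beside 12.6% over all genes tested). The other 3 were not called. Irf1, the main secondary factor of the IFNγ response, read 145, 163, 128 and 143 CPM with TNF and 1219, 1020.0, 1061 and 1009 CPM with TNF + IFN. All TNF + IFN libraries were above 1000 CPM, and the rise was 7.45-fold (log2 2.90 ± 0.15, adjusted p = 2.91e-14). Irf8, best known from myeloid cells, rose from 25.95 ± 10.5 to 324 ± 104 CPM (log2 3.64 ± 0.41). Irf2 rose by 1.22 ± 0.092. Batf2, an AP-1 family factor, read 1.33, 1.64, 1.64 and 1.90 CPM with TNF and 160.1, 135, 93.2 and 91.8 CPM with TNF + IFN, a 73.5-fold rise.

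Promoter sequence is shown for 7 of the genes that rose, picked because their 250 bases before the transcription start hold a match to a GAS (TTCNNNGAA) or to an IRF element (GAAA, any 2 bases, GAAA) and because they stand for the transcription factors, feedback, antigen presentation, GTPases and chemokines described here. Sequences are from RefSeq, build GRCm38.p6, 5′ to 3′ on the strand of the gene, with matches on either strand in capitals. Irf1 and Irf8 have 2 starts in the table, and the window with more matches is shown. The build of the deposited counts is not given in the sources used here.
Irf1, chr11:53769764-53770013, plus strand: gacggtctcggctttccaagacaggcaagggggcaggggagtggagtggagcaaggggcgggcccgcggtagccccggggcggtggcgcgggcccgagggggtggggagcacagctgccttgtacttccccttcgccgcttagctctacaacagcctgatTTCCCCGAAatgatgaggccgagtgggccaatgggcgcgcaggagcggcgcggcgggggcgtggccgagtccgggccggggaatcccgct
Irf8, chr8:120736108-120736357, plus strand: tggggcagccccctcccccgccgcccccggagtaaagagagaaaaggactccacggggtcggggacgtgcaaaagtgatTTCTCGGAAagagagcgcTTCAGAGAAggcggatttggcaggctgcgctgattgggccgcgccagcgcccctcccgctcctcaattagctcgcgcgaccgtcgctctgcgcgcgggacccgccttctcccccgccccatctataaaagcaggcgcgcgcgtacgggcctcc
Socs1, chr16:10785537-10785786, minus strand: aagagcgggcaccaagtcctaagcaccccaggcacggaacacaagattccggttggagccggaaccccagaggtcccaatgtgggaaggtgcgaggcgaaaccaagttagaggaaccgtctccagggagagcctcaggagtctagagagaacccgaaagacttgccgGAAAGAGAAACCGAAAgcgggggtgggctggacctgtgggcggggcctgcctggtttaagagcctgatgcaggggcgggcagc
B2m, chr2:122147437-122147686, plus strand: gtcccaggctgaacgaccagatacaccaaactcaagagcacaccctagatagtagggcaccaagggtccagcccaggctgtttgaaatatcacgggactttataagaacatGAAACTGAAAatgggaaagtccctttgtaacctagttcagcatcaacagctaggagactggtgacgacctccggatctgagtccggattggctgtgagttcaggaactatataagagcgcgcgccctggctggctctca
Gbp2, chr3:142620413-142620662, plus strand: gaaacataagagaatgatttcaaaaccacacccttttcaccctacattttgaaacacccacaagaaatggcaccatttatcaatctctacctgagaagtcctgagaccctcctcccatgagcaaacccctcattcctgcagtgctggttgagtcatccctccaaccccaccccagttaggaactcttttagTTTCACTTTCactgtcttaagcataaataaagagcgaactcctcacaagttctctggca
Gm12250, chr11:58183593-58183842, plus strand: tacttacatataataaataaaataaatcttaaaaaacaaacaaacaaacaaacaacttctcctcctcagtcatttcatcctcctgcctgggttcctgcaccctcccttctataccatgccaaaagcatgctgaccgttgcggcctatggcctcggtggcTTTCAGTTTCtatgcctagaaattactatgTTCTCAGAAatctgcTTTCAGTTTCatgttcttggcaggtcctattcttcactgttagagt
Cxcl10, chr5:92348890-92349139, minus strand: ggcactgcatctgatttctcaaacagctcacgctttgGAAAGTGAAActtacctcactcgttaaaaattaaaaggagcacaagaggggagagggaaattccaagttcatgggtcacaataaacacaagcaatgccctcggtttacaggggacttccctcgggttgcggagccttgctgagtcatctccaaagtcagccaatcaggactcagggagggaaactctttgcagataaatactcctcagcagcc
Irf1 held 1 GAS match that ended 82 bases before the start, and Irf8 held 2. Socs1 held 2 overlapping IRF matches and Gm12250 held 2 IRF matches and 1 GAS match. B2m, Gbp2 and Cxcl10 held 1 IRF match each. Of all 27025 genes with a RefSeq promoter, 3.46% held an IRF match and 8.13% a GAS match in any of their windows. Of the genes tested, 10527 had a promoter in the table, and 3.43% of these held an IRF match and 7.32% a GAS match. Of 1421 genes called higher with a promoter in the table, 8.30% held an IRF match and 8.59% a GAS match. Of 91 with a log2 fold change of at least 3, the shares were 25.3% and 16.5%. Of 943 genes called lower they were 2.44% and 6.58%. A match is a description of the sequence, and binding was not measured.

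MHC class II genes, which present antigen to CD4+ T cells, made up the list with the highest median. Of 13 tested, 11 rose (84.6%, beside 12.6% over all genes tested). The median log2 fold change was 7.75, or 6.48 with genes near 0 counts set to their bound. Ciita, the master transactivator of the class, read 0.988, 1.27, 0.173 and 0.0928 CPM with TNF and 308, 231, 118 and 119 CPM with TNF + IFN. The 2 groups were far apart, and within TNF + IFN replicates 1 and 2 were higher than replicates 3 and 4 (log2 fold change 8.26 ± 0.71, adjusted p = 6.21e-10). H2-Ab1, a class II beta chain, read 0.258, 0.281, 0 and 0.139 CPM with TNF and 329.5, 255, 84.97 and 84.3 CPM with TNF + IFN, a log2 fold change of 10.08 ± 0.94. H2-Aa, the alpha chain gene of the same molecule, and the beta chain gene H2-Eb1 rose by 9.48 ± 1.00 and 9.51 ± 0.87. The invariant chain Cd74 rose from 2.51 ± 1.46 to 539 ± 249.7 CPM (log2 7.75 ± 0.74). H2-DMb2, a subunit of the peptide editor DM, had 0 counts in all TNF libraries and 12.2, 8.28, 3.94 and 3.44 CPM with TNF + IFN, so it was at least 51.6-fold higher against a floor of 3 counts per library. H2-DMb1 rose by 9.19 ± 0.66. The TNF libraries held at most 6 counts each of H2-Ab1, H2-Eb1 and H2-DMb1 and at most 11 of H2-Aa, so the size of these fitted folds depends on the prior count of the fit. Rfxap and Rfxank, subunits of the RFX complex, were the 2 members not called. H2-DMb1 and H2-DMb2 are close copies of each other, as are many H2 genes, and can share reads.

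MHC class I molecules present peptides to CD8+ T cells. Of 12 class I loading genes tested, 11 rose (91.7%, median 1.32), beside 12.6% over all genes tested. Of 16 non-classical class I genes 11 rose (68.8%, median 1.59), where the block called 14 higher and 1 lower. B2m, the light chain of all class I molecules, read 2639, 2593, 2022 and 2176 CPM with TNF and 4508, 5384, 3740.0 and 3574 CPM with TNF + IFN, a 1.82-fold rise (log2 0.87 ± 0.23, adjusted p = 0.00663). The heavy chain H2-K1 read 1319, 1279, 813 and 898 CPM with TNF and 4873, 4107, 2286 and 2414 CPM with TNF + IFN, with no overlap between the groups and replicates 3 and 4 the lower ones in each (log2 1.67 ± 0.34). The class I transactivator Nlrc5 rose from 69.2 ± 18.5 to 361 ± 95.4 CPM (log2 2.38 ± 0.25). The peptide transporter genes Tap1 and Tap2 rose by 2.28 ± 0.19 and 2.17 ± 0.18. H2-T23, the mouse counterpart of HLA-E, rose by 2.96 ± 0.30.

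All 5 immunoproteasome genes rose (median 1.38). Psmb9 read 31.6, 26.4, 21.8 and 22.9 CPM with TNF and 217, 186, 183 and 185 CPM with TNF + IFN, and the groups were well apart (log2 2.91 ± 0.19, adjusted p = 2.07e-12). Psmb8 and Psmb10, the other catalytic subunits, rose by 1.88 ± 0.26 and 1.38 ± 0.17. Of 16 genes of the constitutive proteasome 8 rose and 1 fell (50% and 6.25%, beside 12.6% and 8.44% over all genes tested). The median was 0.28, and Psma5 rose by 0.68 ± 0.14. With scaling by library totals 4 of the 16 were called higher.

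Every guanylate-binding protein gene and every immunity-related GTPase gene tested was called higher, 11 of 11 and 12 of 12. These large GTPases act against intracellular pathogens. The medians were 3.98 and 2.99 on the log2 scale. Gbp2 read 357, 533, 359 and 358 CPM with TNF and 7063, 6595, 5785 and 5890.1 CPM with TNF + IFN. It had the largest gain in mean CPM of all genes that passed the naming filters (log2 3.98 ± 0.22, adjusted p = 8.02e-14). Gbp5 rose from 229.9 ± 39.7 to 2525 ± 126 CPM, Gbp10 by 4.91 ± 0.33 and Gbp11 by 6.53 ± 0.56 on the log2 scale. Irgm1 rose 3.35-fold, Iigp1 6.66-fold and Gm12250, also known as Irgb10, 15.9-fold. Members of both families are near copies of each other, and counts may be shared between them.

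Antiviral genes that are better known as targets of type I interferon rose as well. Of 32 tested 25 rose (78.1%, beside 12.6% over all genes tested), with a median of 1.02. Mx1 read 26.2, 34.2, 18.4 and 15.6 CPM with TNF and 228, 218, 79.4 and 68.7 CPM with TNF + IFN, higher in replicates 1 and 2 of each group (log2 2.66 ± 0.46). Ifit2 rose by 1.85 ± 0.33 and Usp18, a protease that removes ISG15, by 1.73 ± 0.31. All 6 genes of ubiquitin-like conjugation rose. Ubd, which encodes the ubiquitin-like protein FAT10, read 61.8, 67.4, 14.7 and 17.3 CPM with TNF and 3329, 3112, 1901 and 1889.6 CPM with TNF + IFN, a 63.5-fold rise.

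**Figure D2:**
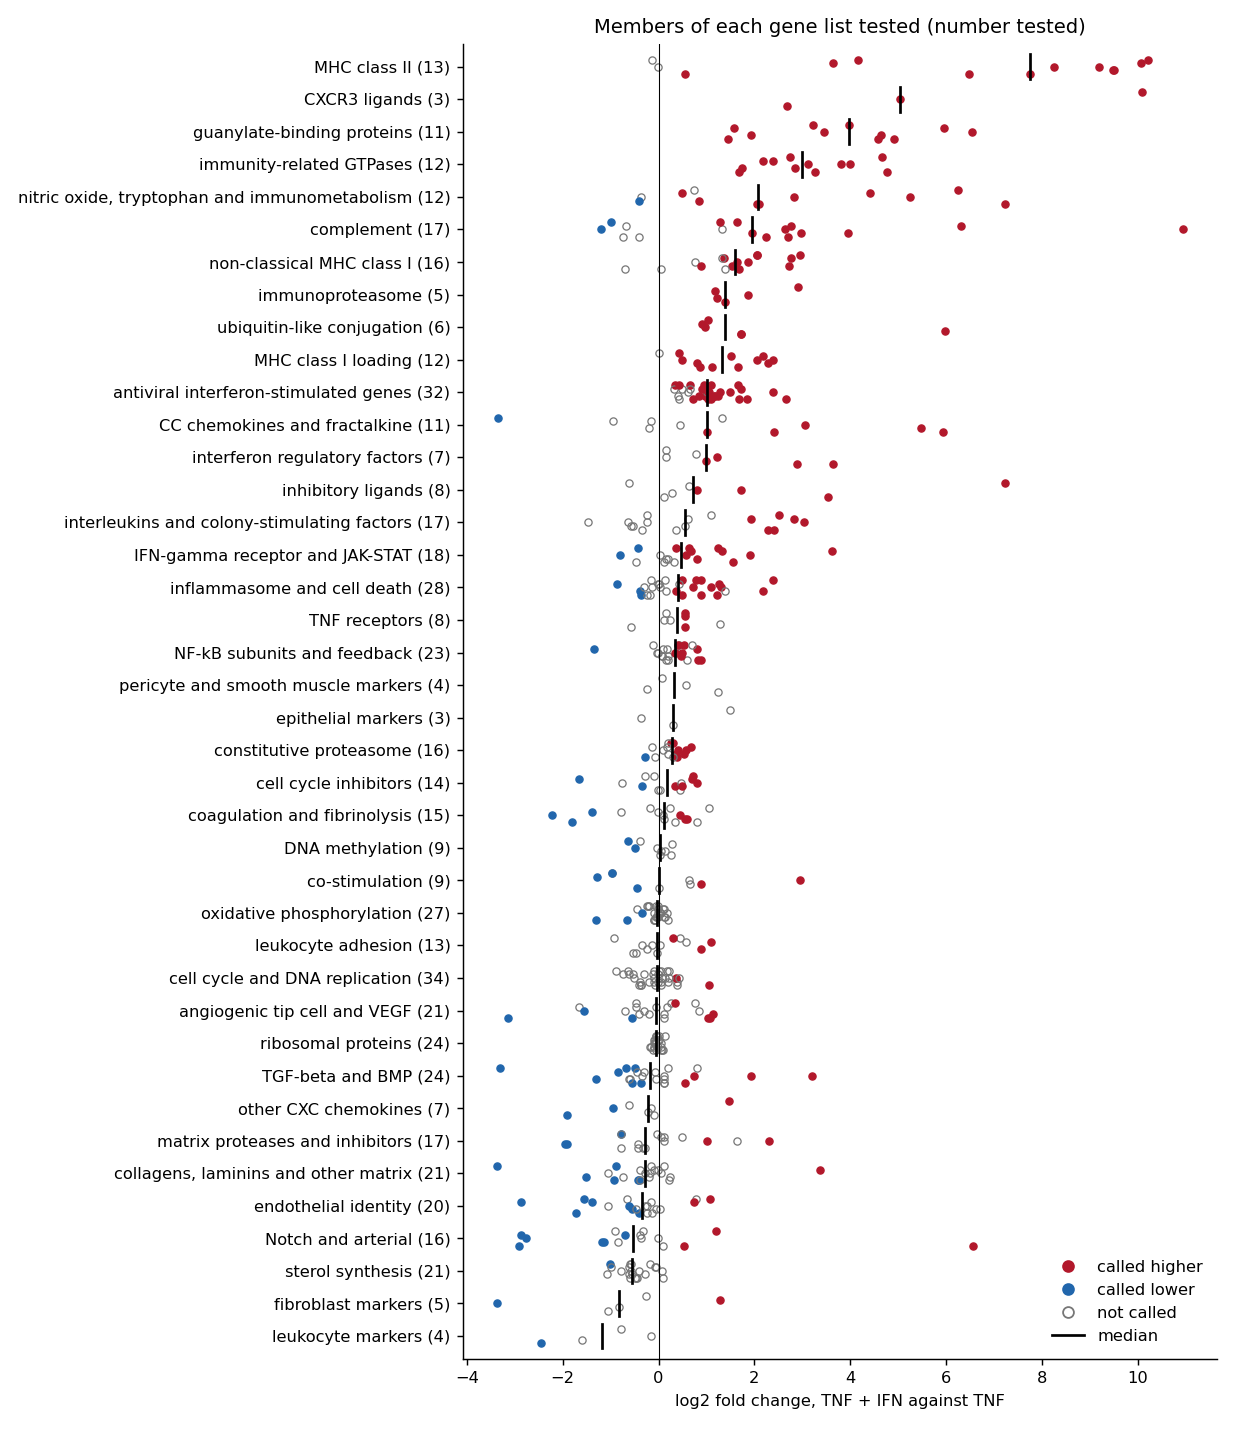
Each row is a gene list with the number of members tested in brackets, and each point is 1 member at its log2 fold change, TNF + IFN against TNF, on the x axis (red, called higher; blue, called lower; open, not called; black bar, median). MHC class II lies furthest right with a median of 7.75, and all 11 guanylate-binding proteins and 12 immunity-related GTPases are red.

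Chemokine genes moved in both directions. The 3 ligands of CXCR3, the receptor of activated T cells, all rose. Cxcl9 read 3.78, 4.22, 2.85 and 3.20 CPM with TNF and 4547, 4359, 3149 and 3216 CPM with TNF + IFN. No TNF + IFN library came near the level of the TNF libraries, and the fold was 1085 (log2 10.08 ± 0.72, adjusted p = 1.95e-11). Cxcl10 rose from 274 ± 56.5 to 1748 ± 306 CPM and Cxcl11 from 8.87 ± 2.85 to 293 ± 131 CPM. Of 7 other CXC chemokine genes tested 1 rose and 2 fell (14.3% and 28.6%, beside 12.6% and 8.44% over all genes tested). Cxcl16, a ligand of CXCR6, rose by 1.47 ± 0.15. Cxcl5, a neutrophil attractant, read 210.1, 159, 204 and 174 CPM with TNF and 34.6, 42.3, 55.6 and 65.9 CPM with TNF + IFN. It fell with no overlap between the groups (log2 -1.91 ± 0.40, adjusted p = 6.55e-04). Cxcl1, another neutrophil attractant, read 133, 111, 93.4 and 107 CPM with TNF and 125, 119, 81.5 and 91.1 CPM with TNF + IFN, and the groups overlapped (log2 -0.096 ± 0.41, adjusted p = 0.912).

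Of 11 CC chemokine genes, fractalkine included, 5 rose and 1 fell (45.5% and 9.09%, beside 12.6% and 8.44% over all genes tested). The block called 2 lower. Ccl5, an attractant of T cells and monocytes, read 124, 128, 139 and 176 CPM with TNF and 1311, 1353, 1092 and 987 CPM with TNF + IFN (log2 3.06 ± 0.36). Ccl8 and Ccl12 rose from 1.25 ± 0.364 to 55.8 ± 28.7 CPM and from 0.805 ± 0.377 to 50.02 ± 22.7 CPM. Ccl2, the main monocyte attractant, read 3238, 3062, 2399 and 2662 CPM with TNF and 4750.2, 4361, 3116 and 3255 CPM with TNF + IFN. Its groups overlapped and it was not called (log2 0.45 ± 0.30, adjusted p = 0.319), although it was called within each pair of replicates (log2 0.54 and 0.33, adjusted p = 1.39e-04 and 0.00985). Ccl20, the ligand of CCR6, fell from 14.2 ± 4.72 to 1.42 ± 0.933 CPM, a 10.1-fold fall.

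Adhesion molecules hold leukocytes at the vessel wall. Of 13 genes of leukocyte adhesion tested 3 rose (23.1%, beside 12.6% over all genes tested). The median was -0.039, and the block called 5 higher and 3 lower. Icam1, a ligand of leukocyte integrins, read 671, 743, 489 and 539 CPM with TNF and 1451, 1198, 946 and 939 CPM with TNF + IFN, a 1.86-fold rise (adjusted p = 0.00324). Vcam1, the ligand of the integrin VLA-4, read 842, 839, 772 and 752 CPM with TNF and 897, 912, 1092 and 1039.5 CPM with TNF + IFN. This rise was at the edge of the threshold (log2 0.30 ± 0.11, adjusted p = 0.0497) and the log2 fold change was 0.11 in replicates 1 and 2 and 0.49 in replicates 3 and 4. It was not called by DESeq2 (adjusted p = 0.0502), with RLE (0.0664), upper-quartile (0.113) or library-total scaling (log2 0.12, adjusted p = 0.436), with no low-count filter (0.129), in fits of the 8 libraries without the block (0.107) or with it (0.0702), or when any of the 8 libraries other than TNF + IFN replicate 1 was left out. Podxl, which encodes podocalyxin, rose by 1.10 ± 0.20.

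E-selectin and P-selectin, which capture rolling leukocytes, had log2 fold changes of opposite sign in the 2 pairs of replicates. Sele read 111, 109, 57.1 and 50.97 CPM with TNF and 43.9, 43.7, 68.03 and 70.4 CPM with TNF + IFN. It was lower with TNF + IFN in replicates 1 and 2 (log2 -1.33, adjusted p = 7.50e-09) and higher in replicates 3 and 4 (log2 0.36, adjusted p = 0.00640), and over all 4 it was not called (log2 -0.54 ± 0.24, adjusted p = 0.121). Without TNF replicate 4 it was called lower (log2 -0.71, adjusted p = 0.0391). Selp read 345, 387, 258 and 256 CPM with TNF and 233, 212, 270.01 and 266 CPM with TNF + IFN, with log2 fold changes of -0.71 and 0.063 in the 2 pairs. The difference between the pairs was not tested.

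Of 9 co-stimulation genes tested 2 rose and 3 fell (22.2% and 33.3%, beside 12.6% and 8.44% over all genes tested). Those that rose were Cd40 and Icam1, which is also a member of the adhesion list. Cd40, a receptor for T-cell help, read 1.55, 2.48, 1.21 and 1.16 CPM with TNF and 16.3, 16.3, 7.83 and 8.84 CPM with TNF + IFN, with no overlap (log2 2.94 ± 0.30, adjusted p = 1.84e-08). Icosl, the ligand of ICOS, read 1.68, 1.73, 2.25 and 2.83 CPM with TNF and 1.06, 0.781, 0.493 and 1.11 CPM with TNF + IFN and fell 2.43-fold (adjusted p = 0.0188). The call of Icosl was lost without TNF replicate 4 (adjusted p = 0.0601), TNF + IFN replicate 2 (0.0522) or TNF + IFN replicate 3 (0.0636). Tnfsf4, the ligand of OX40, read 10.1, 7.60, 15.7 and 13.7 CPM with TNF and 3.70, 5.21, 7.83 and 7.41 CPM with TNF + IFN and fell by 0.97 ± 0.22 on the log2 scale. TNF replicate 2 lay just below TNF + IFN replicate 3, so the groups overlapped.

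Of 8 inhibitory ligands tested 4 rose (50%, beside 12.6% over all genes tested). Cd274, which encodes PD-L1, read 51.4, 68.2, 46.9 and 42.9 CPM with TNF and 758, 771, 466 and 422 CPM with TNF + IFN, an 11.5-fold rise (log2 3.53 ± 0.26, adjusted p = 3.24e-11). Ido1, the enzyme that degrades tryptophan, read 0.344, 0.234, 0.346 and 0.511 CPM with TNF and 70.9, 75.2, 34.6 and 39.5 CPM with TNF + IFN (log2 7.24 ± 0.52). Tnfsf10, the death ligand TRAIL, rose by 1.71 ± 0.45 (adjusted p = 0.00625, and 0.0580 in a fit of only the 2 groups).

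**Figure D3:**
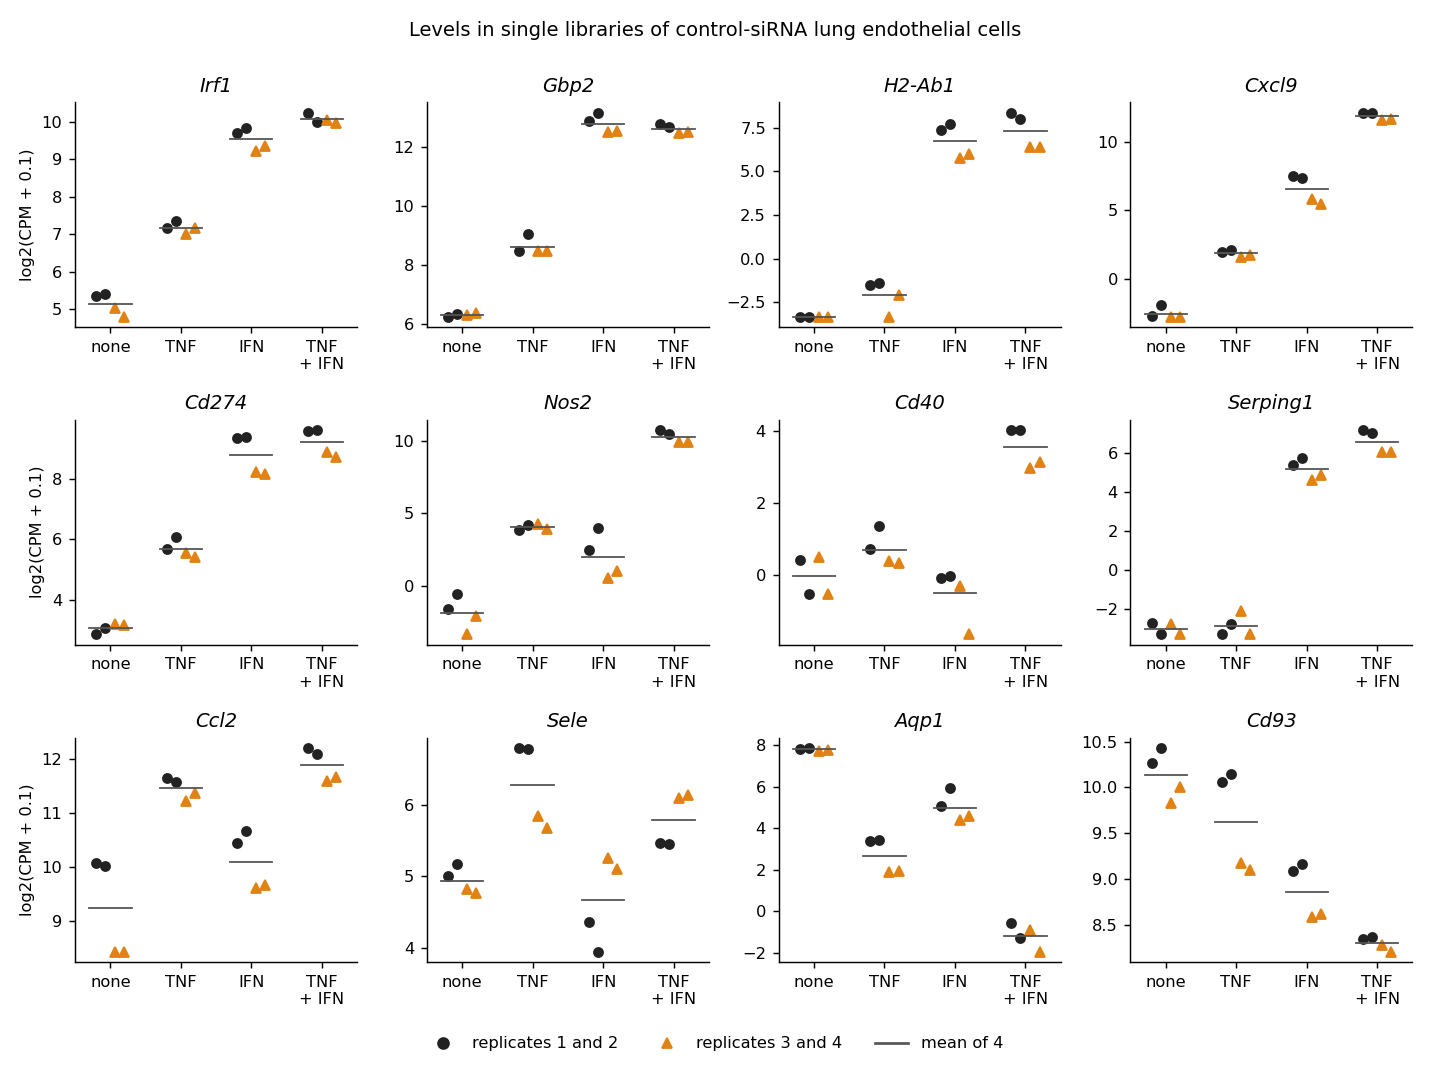
Levels of 12 genes are shown as log2(CPM + 0.1) on the y axis for each control-siRNA library with no cytokine, TNF, IFN or TNF + IFN (black circles, replicates 1 and 2; orange triangles, replicates 3 and 4; grey line, mean of the 4 log2 values). Nos2 and Cxcl9 reach their highest levels with both cytokines, Cd40 is above all libraries of the other 3 states only there, and the Sele libraries of the 2 replicate pairs cross between TNF and TNF + IFN.

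Of 12 genes of nitric oxide, tryptophan and immune metabolism tested 9 rose (75%, beside 12.6% over all genes tested). Acod1, Ch25h, Sod2 and the arginine transporter Slc7a2 were among them. Nos2, the inducible nitric oxide synthase, read 14.4, 18.1, 19.03 and 15.1 CPM with TNF and 1703, 1412, 965 and 974 CPM with TNF + IFN, a 75.7-fold rise with wide separation (log2 6.24 ± 0.58, adjusted p = 2.24e-09). Ido2 rose from 0.658 ± 0.114 to 25.4 ± 5.91 CPM. Nos3, the endothelial nitric oxide synthase, was the only member to fall. It read 153, 181, 185 and 209 CPM with TNF and 139, 131, 140.3 and 141 CPM with TNF + IFN (log2 -0.40 ± 0.12, adjusted p = 0.0186), and the call was lost without TNF replicate 4 (adjusted p = 0.0737) or TNF + IFN replicate 2 (0.0519).

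Complement genes rose in 11 of 17 cases and fell in 2 (64.7% and 11.8%, beside 12.6% and 8.44% over all genes tested). Those that fell were the membrane inhibitors Cd55 and Cd59a. Serping1, the C1 inhibitor, read 0, 0.0469, 0.130 and 0 CPM with TNF and 143, 128, 65.6 and 64.9 CPM with TNF + IFN, so 2 TNF libraries held no count. The ratio of summed levels was 2294, with a 95% exact counting interval of 896 to 8423. C4b rose from 0.812 ± 0.473 to 65.2 ± 38.2 CPM and the protease C1s1 from 61.7 ± 17.7 to 959 ± 264 CPM. C4b and C4a are near-identical copies.

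Of 17 interleukin and colony-stimulating factor genes tested 6 rose (35.3%, beside 12.6% over all genes tested). The block called 9 higher and 2 lower. Il18 rose by 3.03 ± 0.35 and Il18bp, which encodes its soluble inhibitor, by 2.52 ± 0.35. Il27, a subunit of interleukin 27, rose from 0.442 ± 0.203 to 3.13 ± 1.15 CPM. Il6 read 16.3, 16.9, 2.25 and 2.74 CPM with TNF and 36.2, 35.2, 5.24 and 4.39 CPM with TNF + IFN. Within each pair of replicates it was higher with TNF + IFN, while the pairs differed in level and the groups overlapped. It was not called without the block (log2 1.09 ± 0.73, adjusted p = 0.322) and was called with it (adjusted p = 0.0486).

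The NF-kB list, whose genes encode NF-kB subunits and their feedback inhibitors, rose in 8 of 23 cases and fell in 1, with a median of 0.34. These are 34.8% and 4.35%, beside 12.6% and 8.44% over all genes tested. Scaling by library totals called 4 higher. Nfkbia, which encodes the inhibitor IkB alpha, read 251, 268, 244 and 253 CPM with TNF and 231, 215, 277 and 269 CPM with TNF + IFN (log2 -0.034 ± 0.22, adjusted p = 0.943). Tnfaip3, which encodes the feedback enzyme A20, read 111, 119, 141 and 141 CPM with TNF and 218, 213, 262 and 255 CPM with TNF + IFN, a 1.85-fold rise (adjusted p = 2.62e-04). The adaptor Traf1 rose by 0.83 ± 0.16. Of 8 genes of the TNF receptor list 3 rose (37.5%), among them Tnfrsf1a, the main TNF receptor, by 0.56 ± 0.11. Of 28 inflammasome and cell death genes 13 rose and 3 fell (46.4% and 10.7%). Zbp1, a sensor of left-handed nucleic acid, rose from 75.9 ± 9.33 to 400.1 ± 51.6 CPM, the death receptor Fas from 24.1 ± 6.68 to 59.1 ± 16.98 CPM, and Casp1 from 0.281 ± 0.179 to 1.30 ± 0.709 CPM.

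Of 20 genes of endothelial identity 7 fell and 2 rose (35% and 10%, beside 8.44% and 12.6% over all genes tested). The median was -0.34, and the block called 12 lower. The junction genes Cdh5 and Pecam1 were not called. Cdh5 read 1347, 1583, 1071 and 1078 CPM with TNF and 1394, 1267, 1005 and 929 CPM with TNF + IFN (log2 -0.14 ± 0.23, adjusted p = 0.724). Pecam1 had a log2 fold change of -0.24 ± 0.17 (adjusted p = 0.347, and 0.0236 with the block). The transcription factor Sox17 read 6.06, 4.92, 1.56 and 1.53 CPM with TNF and 0.625, 0.781, 0.246 and 0.212 CPM with TNF + IFN, a 7.35-fold fall. Sox18 fell from 46.1 ± 29.9 to 13.9 ± 6.34 CPM, with groups that overlapped, since TNF replicate 3 lay below TNF + IFN replicate 1. Tek, the angiopoietin receptor, fell 2.94-fold. Kdr, the main VEGF receptor, fell 1.48-fold (log2 -0.56 ± 0.14), with a log2 fold change of -0.76 in replicates 1 and 2 and -0.31 in replicates 3 and 4. Vwf, the von Willebrand factor gene, fell from 3.87 ± 1.11 to 1.47 ± 0.652 CPM.

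Arterial and angiogenic genes were called in both directions. Of 16 Notch and arterial genes 6 fell and 3 rose (37.5% and 18.8%, beside 8.44% and 12.6% over all genes tested). The arterial kinase Bmx read 10.3, 14.2, 3.42 and 3.85 CPM with TNF and 1.83, 1.41, 0.370 and 0.529 CPM with TNF + IFN (log2 -2.91 ± 0.54). Gja4, the gap junction gene of connexin 37, moved the other way, from at most 1 count in every TNF library to 2.69, 2.71, 3.08 and 2.22 CPM with TNF + IFN, a ratio of 119 with a 95% exact counting interval of 32.5 to 988. Of 21 genes of the tip cell and VEGF list 3 fell and 4 rose (14.3% and 19%, beside 8.44% and 12.6% over all genes tested), and the block called 8 lower. Esm1, the tip cell gene of endocan, read 23.1, 22.3, 12.2 and 9.98 CPM with TNF and 1.49, 1.56, 2.03 and 2.59 CPM with TNF + IFN, an 8.81-fold fall (adjusted p = 3.07e-09). Outside these lists, the water channel Aqp1 read 10.4, 10.8, 3.59 and 3.71 CPM with TNF and 0.577, 0.312, 0.431 and 0.159 CPM with TNF + IFN, after a mean of 223 CPM with no cytokine (log2 -4.24 ± 0.66). Cd93, an endothelial lectin receptor, read 1069, 1129, 577 and 549 CPM with TNF and 325, 331, 311 and 295 CPM with TNF + IFN. Its TNF + IFN libraries were close to each other, and the log2 fold change was -1.74 in replicates 1 and 2 and -0.89 in replicates 3 and 4. Of 15 coagulation genes 3 rose and 3 fell (20% each, beside 12.6% and 8.44% over all genes tested), with 5 higher by the block, and Serpine2, a thrombin inhibitor, fell 4.66-fold.

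Of 21 matrix genes tested, which were collagens, laminins, nidogens, Fn1, Hspg2 and Sparc, 6 fell and 1 rose. These are 28.6% and 4.76%, beside 8.44% and 12.6% over all genes tested. Those called were all collagens or laminins. The block called 9 of the list lower and 1 higher. Col3a1 read 5.07, 5.06, 3.16 and 4.09 CPM with TNF and 0.336, 0.208, 0.801 and 0.370 CPM with TNF + IFN, a 10.3-fold fall (adjusted p = 6.89e-07). Col6a1 fell by 1.51 ± 0.32 and Col6a3, a chain of the same collagen type, rose by 3.38 ± 0.58. Few counts lie behind Col6a3, at most 28 in any of the 8 libraries. Of 17 matrix proteases and inhibitors 2 rose and 3 fell (11.8% and 17.6%, beside 12.6% and 8.44% over all genes tested), and the block called 4 and 6. The collagenase Mmp13 rose from 7.89 ± 0.993 to 39.3 ± 19.1 CPM. The membrane protease Mmp15 fell by 1.95 ± 0.34 on the log2 scale, and its log2 fold change of -0.92 in replicates 3 and 4 alone was not called (adjusted p = 0.0618). Of 24 genes of TGF-beta and BMP signalling 4 rose and 7 fell (16.7% and 29.2%, beside 12.6% and 8.44% over all genes tested). Bmp2, a ligand, read 1.42, 1.17, 0.476 and 0.279 CPM with TNF and 13.98, 14.3, 1.48 and 1.27 CPM with TNF + IFN, and its log2 fold change was 3.44 in replicates 1 and 2 and 1.84 in replicates 3 and 4. Grem1, which encodes the BMP antagonist gremlin, fell 9.99-fold, a size that rests on at most 33 counts in any of the 8 libraries. Ltbp1, a binding protein of latent TGF-beta, rose 3.80-fold.

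Cell cycle genes were mostly not called, with 2 of 34 higher and 0 lower (5.88% and 0%, beside 12.6% and 8.44% over all genes tested). At an unadjusted p under 0.05 2 were lower, and DESeq2 called 1 lower. The block called 6 lower, beside 2438 of the 15250 genes tested. Mki67, a proliferation marker, read 335, 349, 544 and 488 CPM with TNF and 217, 249, 459 and 377 CPM with TNF + IFN. It was lower with TNF + IFN within each pair of replicates and overlapped between the groups (log2 -0.40 ± 0.28, adjusted p = 0.339, and -0.55 with adjusted p = 9.76e-04 in replicates 1 and 2). The G1 cyclin Ccne1 rose 2.09-fold. Of 14 cell cycle inhibitors 5 rose and 2 fell (35.7% and 14.3%), and 4 fell by the block. Cdkn1a, which encodes p21, rose by 0.72 ± 0.15 (adjusted p = 6.51e-04, and 0.0696 in a fit of only the 2 groups), with a log2 fold change of 0.91 in replicates 1 and 2 and 0.43 in replicates 3 and 4.

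Of 21 sterol synthesis genes 1 fell (4.76%, beside 8.44% over all genes tested), with a median of -0.55. The block called 11 lower, beside 2438 of the 15250 genes tested. The gene that fell, Hsd17b7, read 43.8, 46.2, 21.9 and 20.6 CPM with TNF and 16.7, 18.01, 16.3 and 14.3 CPM with TNF + IFN, and its log2 fold change was -1.37 in replicates 1 and 2 and -0.48 in replicates 3 and 4. Of 27 oxidative phosphorylation genes the same block called 6 lower. In the main fit 3 fell (11.1%, beside 8.44% over all genes tested), with a median of -0.029. They included Ndufa4, which fell 2.47-fold, and the mitochondrially encoded mt-Nd1, at 2813, 2419, 2962 and 2626 CPM with TNF and 1337, 1493, 2002 and 2031 CPM with TNF + IFN. The mt-Nd1 call was lost without TNF + IFN replicate 1 (adjusted p = 0.0626). Of 24 ribosomal protein genes 0 were called by edgeR or DESeq2, and 0 had an unadjusted p under 0.05 (median -0.051), while scaling by library totals called 3 lower.

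Of 9 DNA methylation genes 2 fell (22.2%, beside 8.44% over all genes tested). The block called 3 lower and 1 higher. Dnmt3a, a de novo methyltransferase, fell by 0.48 ± 0.094 on the log2 scale, with a log2 fold change of -0.67 in replicates 1 and 2 and -0.27 in replicates 3 and 4. Dnmt1 read 157, 156, 185 and 189.8 CPM with TNF and 143, 150.2, 211 and 203 CPM with TNF + IFN (log2 0.039 ± 0.33, adjusted p = 0.958), a difference whose sign changed with upper-quartile scaling and with library totals.

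The remaining named genes were chosen by the size of their change. Apol6, of the apolipoprotein L family, read 0.0859, 0.188, 0.130 and 0.0928 CPM with TNF and 103, 95.6, 76.1 and 86.05 CPM with TNF + IFN (log2 9.45 ± 0.32, a size that depends on the prior count, since the TNF libraries held 2 to 4 counts). Klrk1, which encodes the lymphocyte receptor NKG2D, had 0 counts in all TNF libraries and 2.98, 3.54, 0.924 and 1.59 CPM with TNF + IFN, at least 16.8-fold higher against the floor of 3 counts. The lymphocyte markers Cd3e and Nkg7 had 0 counts in all 8 libraries. Prg2, which encodes eosinophil major basic protein, read 27.7, 31.2, 5.10 and 5.48 CPM with TNF and 0.433, 0.260, 0.0616 and 0.370 CPM with TNF + IFN (log2 -5.88 ± 0.78). Il13ra2, the decoy receptor of interleukin 13, read 8.08, 9.14, 1.99 and 1.67 CPM with TNF and 0.144, 0.260, 0 and 0 CPM with TNF + IFN, and 2 of the latter libraries held no count. Alox12e, a lipoxygenase, had at most 3 counts in each TNF + IFN library, a ratio of TNF to TNF + IFN of 14.7 (95% exact counting interval 6.55 to 41.1). Fam107a fell 12.8-fold and the lipid-binding protein gene Sec14l2 10.6-fold, though Sec14l2 lost its call within replicates 3 and 4 (adjusted p = 0.0680). Among abundant genes, Rtn4, the gene of the reticulon Nogo, fell from 2020.2 ± 383 to 1405 ± 78.6 CPM.

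Markers of other cell types changed in 3 instances. Cd14, the only leukocyte marker called (the block called 3 lower), read 18.6, 17.8, 2.42 and 2.46 CPM with TNF and 2.55, 2.71, 1.60 and 0.635 CPM with TNF + IFN, with replicates 1 and 2 far above 3 and 4 under TNF (log2 -2.45 ± 0.89, adjusted p = 0.0498). The call of Cd14 was lost in a fit of only the 2 groups (adjusted p = 0.0562) and when any library was left out except TNF replicates 3 and 4. Of 5 fibroblast markers tested Thy1 rose from 118 ± 30.6 to 286 ± 92.9 CPM and Col3a1 fell, and the block called 2 lower. The fibroblast list summed to 104 to 208 CPM with TNF and 230.1 to 410.4 CPM with TNF + IFN, with Lum and Tcf21 at 0 counts in all 8 libraries. Of 3 epithelial and 4 pericyte and smooth muscle markers tested 0 were called, while 1 of each list was higher at an unadjusted p under 0.05 and by the block, and DESeq2 called 1 epithelial marker higher. Epcam, Sftpc and Scgb1a1 had 0 counts, Des had 0 counts and Rgs5 at most 1. The epithelial list summed to 5.29 to 12.7 CPM with TNF and 7.79 to 11.1 CPM with TNF + IFN. Pericyte and smooth muscle markers summed to 10.0 to 28.7 CPM with TNF and 19.1 to 65.0 CPM with TNF + IFN. Their part in the other results was not tested.

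The effect of IFN was next set against the effect of IFN without TNF, in the same control-siRNA cells and with no library in common. IFN alone against no cytokine called 1307 genes higher (8.57%) and 903 lower (5.92%). Of these, 1017 were also among the 1916 called higher on top of TNF, which is 77.8% of the first list and 53.1% of the second. Of the genes called lower 476 were shared, 52.7% and 37.0% of the lists, and 8 genes were called in opposite directions. The difference between the 2 effects was called for 163 genes (1.07%), 64 (0.420%) with the higher log2 fold change on top of TNF and 99 (0.649%) with the lower one. The block called 299 and 347.

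The second set held guanylate-binding proteins, immunoproteasome genes and other well-known IFN targets. Gbp2 had a mean of 79.9 ± 2.96 CPM with no cytokine, 402 ± 87.8 with TNF, 7169.9 ± 1593 with IFN and 6334 ± 605 with both. Its log2 fold change for IFN was 6.49 ± 0.25 without TNF and 3.98 ± 0.22 with it, a difference of -2.51 ± 0.28 (adjusted p = 1.72e-06), while its levels with IFN and with both overlapped. Psmb9 had means of 3.22, 25.7, 156 and 193 CPM in the same order, and a difference of -2.68 ± 0.26 (adjusted p = 2.58e-07). Cd274 had means of 8.49, 52.4, 473 and 605 CPM and a difference of -2.27 ± 0.34. By list, 8 of 11 guanylate-binding proteins, 7 of 12 immunity-related GTPases, all 5 immunoproteasome genes, 6 of 16 non-classical class I genes and 3 of 12 class I loading genes had a lower IFN effect with TNF. In the MHC class II list the difference was called for 0 of 13, with 1 lower at an unadjusted p under 0.05.

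The IFN effect was higher on top of TNF for the other 64 genes, Cd40 and Ntrk2 among them. Cd40 had means of 0.926 ± 0.398 CPM with no cytokine, 1.60 ± 0.614 with TNF, 0.663 ± 0.307 with IFN and 12.3 ± 4.62 with both. IFN alone gave a log2 fold change of -0.49 ± 0.38 (adjusted p = 0.466), and the difference of the effects was 3.43 ± 0.48 (adjusted p = 6.65e-05). Traf1 had means of 18.6, 42.3, 14.6 and 75.4 CPM in the same order (difference 1.18 ± 0.23, adjusted p = 0.00480, and 0.105 in a fit of only the 4 groups compared). Ntrk2, the receptor gene TrkB, had means of 0.568, 0.0881, 0.478 and 1.04 CPM, where TNF alone was the lowest state at a few counts per library (difference 3.71 ± 0.81, adjusted p = 0.0147, and 0.0513 in replicates 3 and 4). Gys1, the muscle-type glycogen synthase, had means of 50.98, 52.97, 56.3 and 121 CPM (difference 1.05 ± 0.17, adjusted p = 4.75e-04). Gys1 falls outside the naming rule and was chosen after its values were seen.

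**Figure D4:**
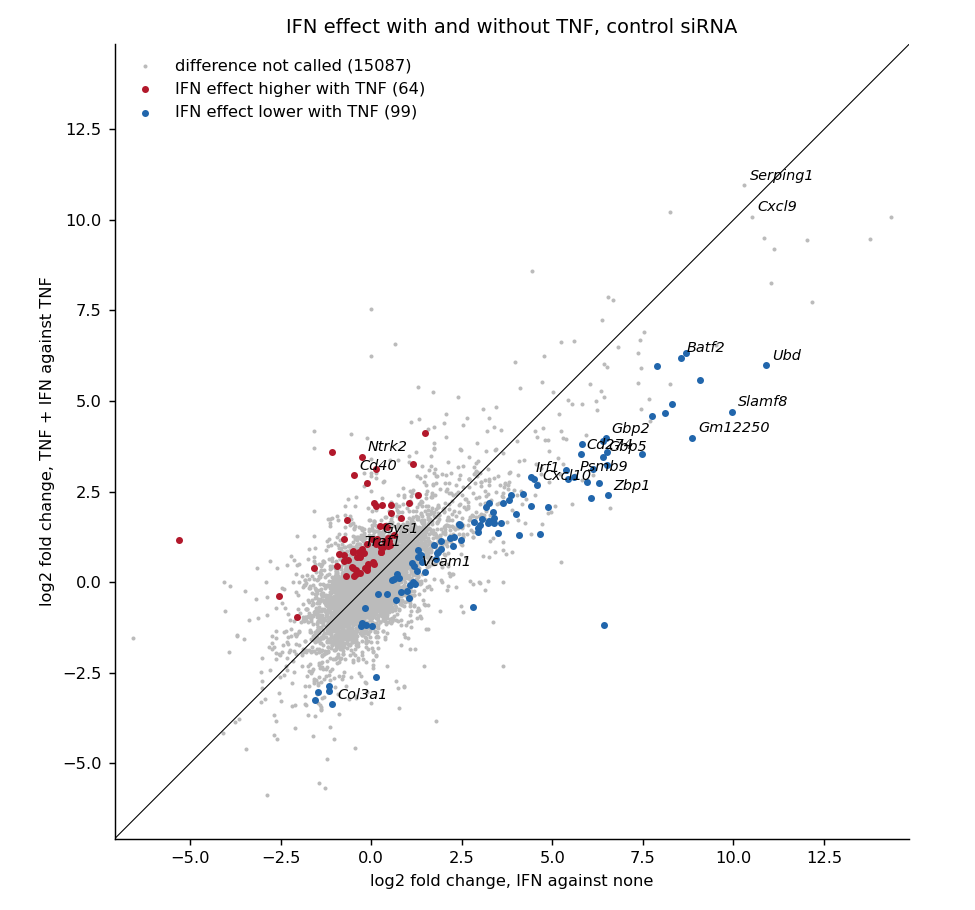
Each point is 1 gene, with the log2 fold change for IFN against no cytokine on the x axis and for TNF + IFN against TNF on the y axis, and the line marks equal effects. The 99 blue genes below the line, Gbp2 and Psmb9 among them, and the 64 red genes above it, with Cd40 and Ntrk2, had a called difference between the effects.

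Levels with both cytokines were also set against the sum of the levels with each, a description chosen after the data were seen. For 154 genes (1.01% of those tested) every TNF + IFN library lay above the sum of the highest TNF library and the highest IFN library. They included 146 of the 1916 genes called higher and 59 of the 148 with a log2 fold change of at least 3. The description itself requires every TNF + IFN library to lie above every TNF library, so this overlap is largely fixed by it. Cxcl9 had means of 0.0737 ± 0.0569 CPM with no cytokine, 3.51 ± 0.606 with TNF, 112 ± 71.2 with IFN and 3818 ± 738 with both, while its log2 effects of IFN were 10.52 ± 0.90 without and 10.08 ± 0.72 with TNF, and the difference was not called (difference -0.43 ± 1.27, adjusted p = 0.977). With so few counts in the libraries without cytokine, the first of these effects depends on the prior count of the fit. Nos2 had means of 0.238, 16.7, 6.25 and 1264 CPM in the same order. Cxcl11 had 0.0558, 8.87, 13.2 and 293 CPM and Ccl5 2.86, 142, 21.3 and 1186 CPM. For Nos2, Cxcl11 and Ccl5 the difference of the log2 effects of IFN with and without TNF was not called either. All 3 CXCR3 ligands met this description, as did 4 of 11 CC chemokine genes, 5 of 12 genes of nitric oxide, tryptophan and immune metabolism, 6 of 17 complement genes and 5 of 17 interleukin genes. None of 12 immunity-related GTPases, 12 class I loading genes, 5 immunoproteasome genes and 20 endothelial identity genes did, and several other lists also held none. Beside the 1.01% over all genes tested, a count of 0 in lists this short is not a result about their members. A sum of levels and a product of folds are different references, so a gene such as Gbp8 or Ubd can lie above the sum and still have a lower fold with TNF.

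The addition of IFN was then examined after siRNA against Dnmt1, where Dnmt1 read 11.8 ± 4.38 CPM with TNF and 10.5 ± 5.69 CPM with TNF + IFN. In these si-dnmt cells 1657 genes were called higher (10.9%) and 1006 lower (6.60%). Of the rises 1339 were shared with the control cells, 69.9% of the control list and 80.8% of the si-dnmt list. Of the falls 663 were shared, 51.5% and 65.9% of the lists, and 2 genes were called in opposite directions. The difference between the siRNAs was called for 5 genes (0.0328%), and 593 had an unadjusted p under 0.05. DESeq2 called 21 and the block 41, and leaving out 1 library at a time gave 2 to 6. The IFN effect on Tma16, a gene of ribosome assembly, was larger in si-dnmt, where it went from 19.6 to 100.5 CPM against 21.3 to 36.9 CPM in control cells (difference 1.57 ± 0.21, adjusted p = 8.58e-04). Its call held in a fit of only the 4 groups compared (adjusted p = 0.0112). The effect was smaller in si-dnmt for Batf2, Gbp8, Mxi1 and Gys1, and none of these was called in that fit (adjusted p = 0.0506, 0.203, 0.203 and 0.430). Gbp8 was called only without TNF replicate 4, TNF + IFN replicate 3 or 4, si-dnmt + TNF replicate 3 or 4, or si-dnmt + TNF + IFN replicate 1 or 2, and so lost its call in 9 of the 16 fits that left out 1 library. Mxi1 and Gys1 each lost theirs in 12 of the 16, all but those without TNF + IFN replicate 3 or 4, si-dnmt + TNF replicate 1 or si-dnmt + TNF + IFN replicate 2. For Batf2 the TNF level was 7.83 ± 2.35 CPM in si-dnmt against 1.63 ± 0.234 CPM in control cells, and the levels with both cytokines were 137 ± 22.1 and 120.1 ± 33.4 CPM (difference -2.07 ± 0.33, adjusted p = 0.00549). Cd40 went from 5.11 to 37.2 CPM and Cxcl9 from 19.8 to 6131 CPM in si-dnmt, and neither difference was called.

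The comparison was last made within each pair of replicates. Replicates 1 and 2 alone called 5599 genes and replicates 3 and 4 alone 3820. Many of the named genes were chosen because their groups did not overlap, which fixes the same sign in both pairs, so their signs are a description. Of the 118 that could be fitted in both pairs, Sele, Selp, Nfkbia, Dnmt1 and Cxcl1 had opposite signs, and none of them was called over all 4 replicates.

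**Figure D5:**
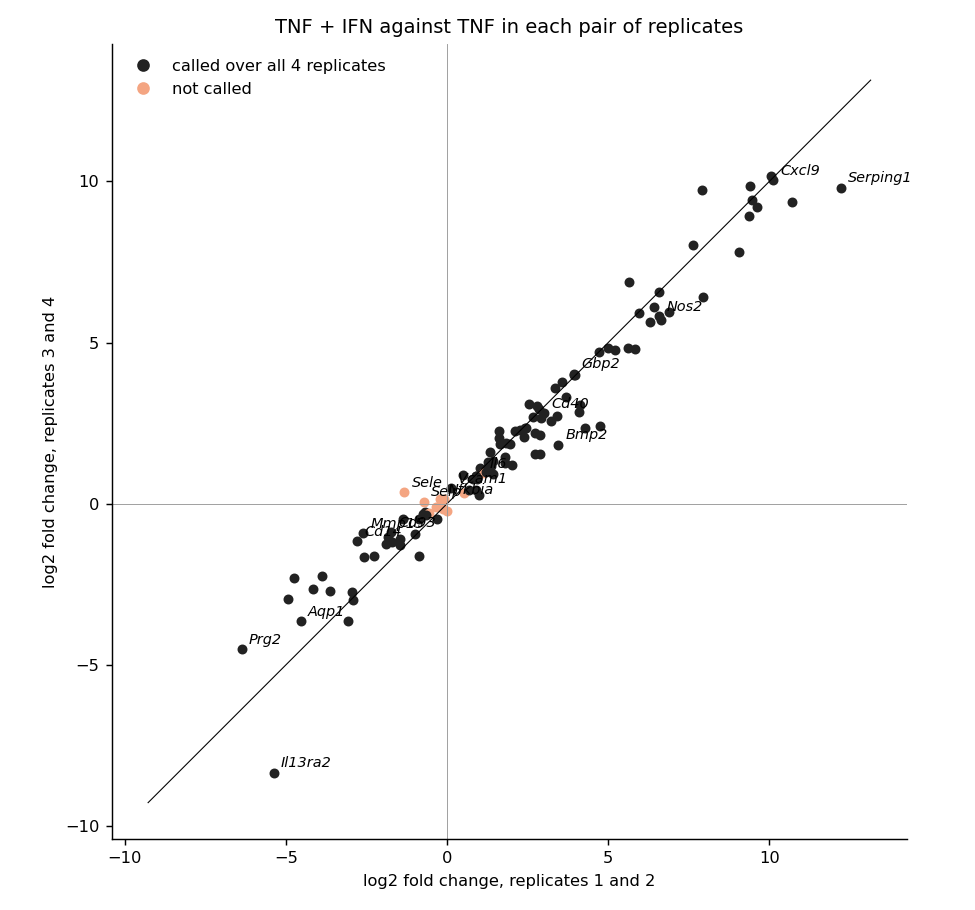
Each point is 1 of 118 named genes, with the log2 fold change, TNF + IFN against TNF, in replicates 1 and 2 on the x axis and in replicates 3 and 4 on the y axis (black, called over all 4 replicates; orange, not called; line, equal values). Most named genes lie near the line, and Sele lies to the left of 0 and above it.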

How the data were processed

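RNA of 32 libraries was sequenced in bulk, in 8 groups of 4 from siRNA (si-control or si-dnmt) and cytokine (none, TNF, IFN or TNF + IFN) per the labels. The deposited values were raw counts per gene. Per the submitters' processing notes the authors trimmed reads with cutadapt 4.9, checked them with FastQC 0.12.1 and MultiQC 1.27.1 and counted them with featureCounts, and DESeq2 is also listed. For the aligner, genome build, annotation and strand setting no value was given in the sources used here, and reads of overlapping or near-identical genes may be split between them.

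Genes with enough counts (filterByExpr, minimum count 10) were fitted in R 4.3.3 with edgeR 4.0.16, TMM scaling and the quasi-likelihood test, with a mean for each of the 8 groups over all 32 libraries and no block. The comparison was the difference of 2 means, and the differences between effects were contrasts of 4 means. P-values were adjusted over the 15250 genes tested by the Benjamini-Hochberg method, with 0.05 as threshold, and measure the spread between these libraries. CPM values were scaled by TMM. Folds against groups with 0 counts were given against a floor of 3 counts per library, and those against groups with at most 3 counts in every library with an exact 95% interval, which cover counting error only. The script was tested on simulated data that held no difference between the pairs of replicates, so that test does not cover such a difference.

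Replicate numbers were taken from the labels. Deviations from the group means of same-numbered TNF and TNF + IFN libraries correlated at 0.425 to 0.462, those of the other library of the same pair at 0.421 to 0.479, and those across the pairs at -0.482 to -0.407. Libraries of the same pair of replicates thus shared deviations. The same number gave no closer match than the other number of the pair, so the values do not show that single numbers pair the samples. The main fit held no block, so the difference between the pairs stayed in the spread that its p-values measure. Deviations shared across groups were not modelled in it. A replicate block was fitted as an alternative. DESeq2 1.42.0, other scalings, filters and sets of libraries were the other alternatives.

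Members and gene lists were chosen with earlier results of these data known. Named genes were a fixed list of cytokine response genes, the 10 largest rises and falls by fold and the 5 by mean CPM among genes whose groups did not overlap, the 3 largest differences of effects each way, and the 3 largest called members of each list. Ifngr1, Ifngr2, Rfxap, Rfxank, Cd55, Cd59a, Acod1, Ch25h, Sod2, Slc7a2, Gys1 and the markers of other cell types fall outside this rule. They were named after their values were seen or as parts of a fixed list. Not every gene the rule gave is printed, and some are not reported here.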

Additional observations from a re-analysis of the deposited data

Results flagged for a closer look

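The IFN effect differed with and without TNF for 25 of the named genes by the test of the difference, given here on the log2 scale as the effect on top of TNF less the effect without it. Among transcription factors it was -1.50 for Irf1 and -2.36 for Batf2. Among class I and proteasome genes it was -1.54 for Tap1, -1.09 for Tap2, -2.13 for Psmb8, -2.68 for Psmb9 and -1.56 for Psmb10. Among GTPases it was -2.51 for Gbp2, -2.95 for Gbp5, -1.93 for Gbp8, -3.38 for Gbp10 and -4.88 for Gm12250. It was -4.92 for Ubd, -4.14 for Zbp1, -5.26 for Slamf8, -1.90 for Cxcl10, -0.96 for Vcam1, -2.27 for Cd274 and -2.28 for Col3a1. It was above 0 for Cd40 at 3.43, Traf1 at 1.18, Ccne1 at 0.94, Ntrk2 at 3.71, Mxi1 at 1.08 and Gys1 at 1.05.

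Some of these calls depended on the fit. In a fit of only the 4 groups compared the differences of Traf1 (adjusted p = 0.105), Cxcl10 (0.0937), Mxi1 (0.117) and Ccne1 (0.160) were not called. Ccne1 was also not called with library totals (0.0704), with no low-count filter (0.0743) or without TNF replicate 3 or 4, TNF + IFN replicate 1 or 2, si-control replicate 3 or 4, or IFN replicate 1, 2 or 4. Mxi1 lost its call in replicates 3 and 4 (0.147) and without TNF + IFN replicate 2 or si-control replicate 2, and Ntrk2 in replicates 3 and 4 (0.0513). Tap2 lost its call without TNF replicate 2, si-control replicate 2 or IFN replicate 1 or 2, and Col3a1 without TNF replicate 1 or TNF + IFN replicate 1, 2 or 4.

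Slamf8, a receptor gene of the SLAM family, had means of 0 ± 0 CPM with no cytokine, 1.24 ± 0.230 with TNF, 5.88 ± 1.25 with IFN and 32.5 ± 2.59 with both. Zbp1 had 3.03 ± 0.789, 75.9 ± 9.33, 282 ± 57.7 and 400.1 ± 51.6 CPM in the same order. Where the libraries without cytokine held few counts, the size of the difference depends on the prior count of the fit.

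The IFN effect on top of TNF differed between si-dnmt and si-control for 5 genes, by 1.57 for Tma16, -2.07 for Batf2, -1.59 for Gbp8, -1.36 for Mxi1 and -0.90 for Gys1 on the log2 scale, si-dnmt less si-control. In a fit of only the 4 groups compared 1 of them, Tma16, was called.

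In 3 of the 238 groups of 4 libraries examined, 1 library lay far from the other 3. The chance rate of about 1 in 20 holds for 4 libraries of 1 kind. The pairs of replicates differ, so that rate does not apply here. Psmb9 was highest in TNF + IFN replicate 1 at 217 CPM. Gbp2 was highest in TNF replicate 2 at 533 CPM. Nos3 was lowest in TNF + IFN replicate 2 at 131 CPM.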

How the results depend on the processing

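The labels name no batch, the 2 pairs of replicates differ throughout, and all cells are of 1 line, so the spread between libraries describes this line. Counts of calls depended on how the pairs were handled. With the replicate block 5175 genes were called between TNF + IFN and TNF (2438 lower), and 2283 lower when only the 8 libraries were blocked. Over all 32 libraries the replicate block changed the call of Il6 and Pecam1 among the named genes. Over only the 8 libraries it called Ccl2 (adjusted p = 0.00714), Il6 (1.58e-04) and Mki67 (0.00315), did not call Pecam1 and lost Vcam1 (0.0702). Replicates 1 and 2 alone called 5599 (3026 higher, 2573 lower). A fold of at least 2 either way left 1091. Scaling by library totals, chosen after seeing the data, gave 1268 higher and 3188 lower. Leaving out 1 library gave 2440 to 3140 calls, 1518 to 1853 higher and 922 to 1287 lower.

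The difference of the IFN effect with and without TNF was called for 646 genes by the block (299 higher, 347 lower), 94 in a fit of only the groups compared (25 higher), 288 by DESeq2 (114 and 174), 1633 (688 and 945) in the first pair of replicates and 661 (274 and 387) in the second, with 154 lower by library totals. Leaving out 1 library gave 124 to 174, with 42 to 78 higher (42 without TNF replicate 1) and 75 to 113 lower. The difference between the siRNAs was called for 1 gene in a fit of only the groups compared, 41 by the block, 257 in replicates 1 and 2, 105 in replicates 3 and 4, 21 by DESeq2 and 2 to 6 without 1 library. It fell to 2 without TNF replicate 1, 2 or 3, TNF + IFN replicate 2, si-dnmt + TNF replicate 2, or si-dnmt + TNF + IFN replicate 3 or 4.

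For IFN alone, only the groups compared gave 1390 (868 higher, 522 lower), the block 3880 (1938 lower), replicates 1 and 2 3902 (2172 higher, 1730 lower), replicates 3 and 4 3331 (1518 lower), library totals 1630 lower and no filter 569 lower. Leaving out 1 library gave 1748 to 2078, 1043 to 1249 higher and 599 to 905 lower, the lowest without si-control replicate 2. In si-dnmt, the block gave 4532 (2088 lower), replicates 1 and 2 4655 (2554 higher, 2101 lower), replicates 3 and 4 1731 lower and library totals 2798 lower. Leaving out 1 library gave 2070 to 2555, 1333 to 1656 higher and 730 to 920 lower. The causes of these shifts were not tested.

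The log2 fold change reversed only for genes not called. Cxcl1 gave 2.67e-05 in replicates 1 and 2 and -0.20 to 3.76e-04 without 1 library. In replicates 3 and 4 Sele gave 0.36, Selp 0.063 and Nfkbia 0.14, and Nfkbia gave -0.097 to 0.026 without 1 library, the latter without TNF + IFN replicate 2. Dnmt1 gave -0.011 with upper-quartile factors, -0.13 with library totals, -0.00388 with the 8-library block, -0.093 in replicates 1 and 2 and -0.062 to 0.13 without 1 library. Genes under the count filter were not tested at this depth.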
